A study of Mus musculus with 4 samples.

Results

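Endoplasmic reticulum (ER) chaperones and genes of the unfolded protein response were described in whole kidneys of C57BL/6 mice with and without glomerulonephritis (GN), an inflammation of the filtering units of the kidney. The set was a named list of 10 genes, found on the array through the platform annotation, out of 12394 genes with a probe set of a single symbol: Hspa5, Hsp90b1, Sdf2l1, Calr, Pdia4, Pdia6, Herpud1, Xbp1, Atf4 and Ddit3. They were covered by 22 probe sets, of which 20 had a mean over the arrays past an expression filter at the 40th percentile of all probe sets, and all 10 genes passed it by their probe set with the highest mean. There was 1 array in each of 4 groups, so no value below has a standard deviation or a test, and precision is limited by this number.

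The GN+Captopril group received horse spleen apoferritin, 10 mg intraperitoneally on 5 days of each week, and 100 µg of lipopolysaccharide 3 times a week as an adjuvant, for 6 weeks, and drank captopril at 100 mg/kg/day, an inhibitor of angiotensin converting enzyme. The GN+Water group had the same injections and plain drinking water. The Saline+Captopril and Saline+Water groups were injected with 0.15 M NaCl instead, with and without the drug. The design asks what the drug does to kidneys with chronic GN. All mice are labelled male and 17 weeks old, kidneys were removed after 9 weeks, and the labels give 6 mice in a group without saying how many contributed to an array. Values are log2 probe set values as deposited. In a whole organ, fewer cells of a kind and less RNA per cell cannot be told apart.

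The 7 proximal tubule markers and 4 of later tubule segments were over background on all arrays, and Slc34a1, a phosphate transporter of the proximal tubule, lay between 13.17 and 13.44. Slc22a6, another proximal tubule transporter, was lowest on the array labelled GN+Water, at 10.60 against 11.85 to 12.53 on the others. Podocyte markers were dimmer, with Nphs1 between 7.08 and 7.90 and Wt1 below the filter. Sex-linked genes on the array labelled GN+Water went against its label: Xist stood at 8.97 there and between 5.02 and 5.21 elsewhere, and the Y-linked Eif2s3y at 3.43 against 8.02 to 8.29. The Saline+Water array stood apart in its spike-in controls, whose median of 10.84 compares with 7.46 to 7.89 on the others. Different probe sets of the same gene also disagreed when it was used. Among 2947 genes with several probe sets past the filter, the probe sets' differences spread over a median of 0.67 (log2) for GN+Water minus Saline+Water and 0.63 for Saline+Captopril minus Saline+Water, but over 0.11 for GN+Captopril minus Saline+Captopril and 0.14 for GN+Captopril minus GN+Water. Of the GN comparisons, only that of the captopril groups uses neither of these arrays.

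The ER folds secreted and membrane proteins. When unfolded proteins build up there, the sensors IRE1, PERK and ATF6 are released from the chaperone BiP: IRE1 splices Xbp1 mRNA into the form that encodes an active transcription factor, PERK slows translation while favouring that of Atf4, and ATF6 is cut into a factor that moves to the nucleus. Their joint output raises chaperones, folding enzymes and the machinery that removes misfolded proteins, and under lasting stress the death-associated factor CHOP, encoded by Ddit3. In the kidney, such responses have been described in tubule cells and podocytes under injury, and antibody-secreting plasma cells depend on XBP1.

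The promoters of this set were searched for elements that ATF6, XBP1 and ATF4 are known to use. The rule for the set used no sequence, but its genes were listed as genes of this response. Matches among them, and in the further lists below, are therefore a description and not a test. The ER stress response element (ERSE), here CCAAT followed by any 9 bases and then CCACG, was searched on both strands of RefSeq promoter windows (GRCm38.p6, 250 bases before to 50 after the annotated start). It was present in 4 of the 10 genes, and in 0.119% of all 32851 windows (39 in number). The related ERSE-II, ATTGG with 1 further base and then CCACG, was found in Herpud1 alone of the 10 and in 0.0365% of all windows. Each match is in capitals from its first to its last base, each window is written 5′ to 3′ on the gene's own strand, and an element in reverse reads as its reverse complement.
Hspa5 (chr2:34772010-34772058, plus strand): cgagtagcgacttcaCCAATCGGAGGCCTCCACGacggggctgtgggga
Pdia6 (chr12:17266476-17266524, plus strand): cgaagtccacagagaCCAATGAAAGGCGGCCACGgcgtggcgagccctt
Hsp90b1, farther from the start (chr10:86705623-86705671, minus strand): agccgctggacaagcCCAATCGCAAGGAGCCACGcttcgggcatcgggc
Hsp90b1, nearer to the start, in reverse (chr10:86705518-86705566, minus strand): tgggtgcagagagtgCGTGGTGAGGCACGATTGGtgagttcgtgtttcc
Calr, in reverse (chr8:84847060-84847108, minus strand): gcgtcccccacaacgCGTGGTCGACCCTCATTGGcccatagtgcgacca
Herpud1, ERSE-II (chr8:94386362-94386402, plus strand): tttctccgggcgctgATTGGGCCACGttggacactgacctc

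Counted from the annotated start, the ERSE of Hspa5 lay at −65 to −47, that of Pdia6 at −98 to −80 and that of Calr, in reverse, at −162 to −144. Hsp90b1 was the only one of the 10 with a pair of them, at −212 to −194 and −107 to −89, in opposite orientations. Herpud1 held, besides its ERSE-II, a reverse match to a C/EBP-ATF composite element, searched as TGATG directly followed by CAA, the kind of site bound by ATF4 with a partner. That element was present in 0.895% of all windows. The XBP1 and ATF6 site searched as TGACG directly followed by TGG was found in none of the 10 windows and in 0.676% of all. No match in Pdia4, Sdf2l1, Xbp1, Atf4 or Ddit3 says only that these letters are not in this window. None of the matches within a gene overlapped.

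**Figure D1:**
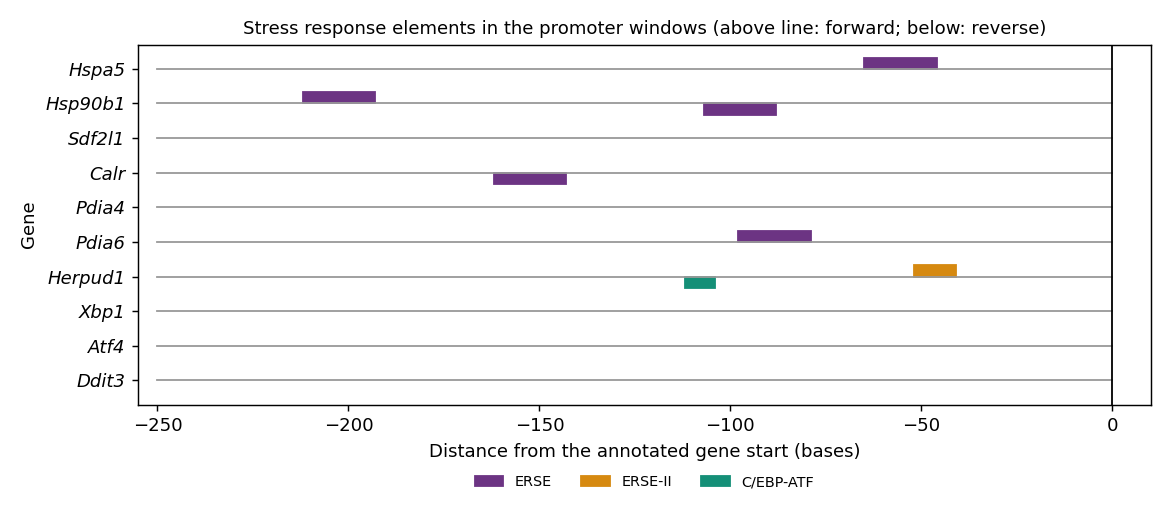
Position of each motif match in the promoter windows of the 10 genes, as distance in bases from the annotated gene start (x axis, negative before it), with forward matches above the line and reverse matches below it. The 5 ERSE matches lie in Hspa5, Hsp90b1, Calr and Pdia6, and Herpud1 holds 1 ERSE-II and 1 C/EBP-ATF match.

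Between the 2 captopril groups, none of the 10 genes was 1.5-fold apart. Their differences, GN+Captopril minus Saline+Captopril, ranged from −0.12 for Atf4 to 0.38 for Xbp1 with a median of 0.10, against a median of 0.0 over 8207 genes past the filter. In this comparison 1.85% of all genes passed 1.5-fold upwards and 0.207% downwards, so a count of 0 in 10 is near the background. None of the 22 probe sets passed 1.5-fold either.

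Against Saline+Water, the array labelled GN+Water had 1 of the 10 genes higher by 1.5-fold or more, Hsp90b1, and 1 lower, Pdia4. Both shares lie under those of all genes in that comparison, which were 19.6% higher and 15.3% lower. The median over the 10 genes was 0.11. Set against Saline+Captopril instead, Hsp90b1 on the array labelled GN+Water was higher by 0.18 and Pdia4 was higher too, by 0.28. By probe set, 4 of 22 passed 1.5-fold upwards and 4 downwards.

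**Figure D2:**
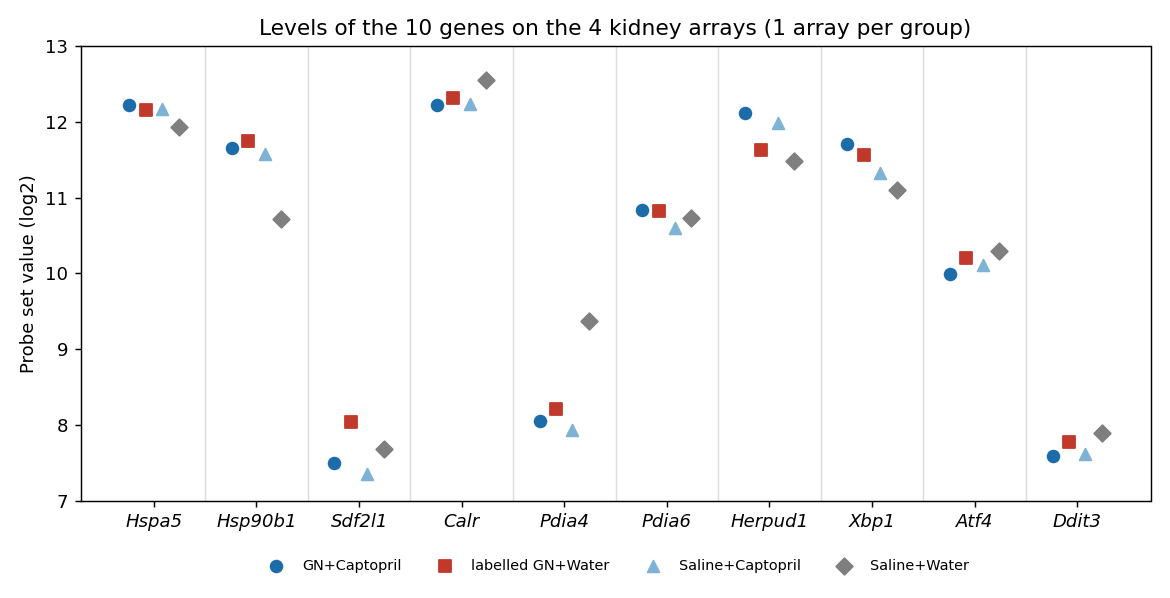
Level (log2 probe set value) of each gene's probe set with the highest mean, 1 point per array, with genes ordered by role. The Saline+Water point lies away from the other 3 arrays for Hsp90b1 and Pdia4, while Hspa5 and Calr stay within 0.30 and 0.32 over all 4 arrays.

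The chaperones that bind unfolded chains come first. Hspa5 encodes BiP, the ER member of the HSP70 family that holds the stress sensors inactive. It stood at 12.22 on GN+Captopril, 12.15 on the array labelled GN+Water, 12.17 on Saline+Captopril and 11.93 on Saline+Water. The first 3 arrays lay within 0.07 of each other, and GN and saline arrays overlapped. Its second probe set read 11.53, 11.33, 11.45 and 11.07 in the same order of arrays, with the same array lowest. GN+Captopril exceeded Saline+Captopril by 0.05 and 0.08 by these probe sets, or 1.03-fold by the first.

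Hsp90b1 encodes GRP94, the HSP90 of the ER, which matures integrins and Toll-like receptors. Its level was 11.65 on GN+Captopril, 11.75 on the array labelled GN+Water, 11.57 on Saline+Captopril and 10.71 on Saline+Water, so that the 2 GN arrays lay above the 2 saline arrays and Saline+Water was far lowest. The GN arrays exceeded the higher saline array by at least 0.08. The second probe set read 10.85, 10.99, 10.78 and 10.78, also without overlap, but with both saline arrays alike. The difference of GN+Water minus Saline+Water was thus 1.04, or 2.05-fold, by the first probe set and 0.21 by the second. On captopril the probe sets were 0.08 and 0.07 higher in GN.

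Sdf2l1, a stress-inducible partner of BiP that acts with ER DnaJ proteins, had 1 probe set. It read 7.50 on GN+Captopril, 8.04 on the array labelled GN+Water, 7.36 on Saline+Captopril and 7.68 on Saline+Water. The array labelled GN+Water was highest, and its neighbours in the order were Saline+Water and GN+Captopril. Its range without Saline+Water, 0.69, was the widest of the 10 genes, and the only one over 1.5-fold. GN+Captopril was 1.46-fold lower than the array labelled GN+Water and 1.10-fold higher than Saline+Captopril.

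Calr encodes calreticulin, a lectin chaperone that binds freshly glycosylated proteins and stores calcium. Its level was 12.22 on GN+Captopril, 12.31 on the array labelled GN+Water, 12.23 on Saline+Captopril and 12.54 on Saline+Water. Saline+Water was highest by each of its 3 probe sets, which put GN+Water minus Saline+Water at −0.23, −0.70 and −0.38. GN+Captopril minus Saline+Captopril was −0.01, 0.07 and 0.14 by the same probe sets, all small and not of the same sign.

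Pdia4 and Pdia6 encode protein disulfide isomerases, which form and reshuffle the disulfide bonds of secreted proteins. Pdia4 read 8.05 on GN+Captopril, 8.21 on the array labelled GN+Water, 7.93 on Saline+Captopril and 9.37 on Saline+Water. The first 3 spanned 0.28, and Saline+Water exceeded the highest of them by over 1.5-fold. GN+Water minus Saline+Water was −1.15 (2.22-fold lower) and Saline+Captopril minus Saline+Water was −1.44 (2.71-fold lower), and both use that array. A second probe set, below the expression filter at 4.78, 4.80, 5.06 and 5.68, had Saline+Water highest too. It also had both GN arrays below both saline arrays, unlike the first. GN+Captopril minus Saline+Captopril was 0.12 by the first probe set and −0.28 by the second.

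Pdia6 was at 10.84 on GN+Captopril, 10.82 on the array labelled GN+Water, 10.60 on Saline+Captopril and 10.73 on Saline+Water. Here the 2 GN arrays were above both saline arrays, by at least 0.08, and Saline+Water was not an extreme. GN+Captopril exceeded Saline+Captopril by 0.24, or 1.18-fold. On water the difference of 0.08 changed sign under quantile normalisation, to −0.01. Its second probe set, below the filter at 5.61, 5.61, 5.81 and 6.19, had both GN arrays lower instead.

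Herpud1 encodes a membrane protein of the ER-associated degradation complex, which exports misfolded proteins to the proteasome, and is a strongly inducible target of the stress response. Its level was 12.11 on GN+Captopril, 11.63 on the array labelled GN+Water, 11.98 on Saline+Captopril and 11.49 on Saline+Water. Both captopril arrays were above both water arrays, and the GN and saline arrays overlapped. Captopril exceeded water by 0.48 (1.40-fold) in GN and by 0.49 (1.41-fold) in saline, and the second probe set gave 0.43 and 0.48. The 2 differences share no array, but each uses 1 of the arrays that stand apart. GN+Captopril minus Saline+Captopril was 0.13 and 0.18 by the 2 probe sets.

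Among the regulators, Xbp1 encodes the factor that is activated when IRE1 splices its mRNA, and these probe sets were not used to tell the spliced form apart. It was at 11.71 on GN+Captopril, 11.56 on the array labelled GN+Water, 11.33 on Saline+Captopril and 11.10 on Saline+Water, with both GN arrays above both saline arrays by at least 0.23. The difference on captopril, 0.38 or 1.30-fold, was the largest of the 10 genes, and that on water was 0.46 or 1.37-fold. Of its 4 probe sets, 3 separated the GN from the saline arrays. Those 3 put GN+Captopril minus Saline+Captopril at 0.38, 0.35 and 0.39, while the fourth, the dimmest and the only one without a suffix for shared probes, gave −0.19. For GN+Water minus Saline+Water the probe sets ranged from 0.46 to 1.44, and with the mean of all 4 the gene passed 1.5-fold at 0.83.

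Plasma cells are rich in XBP1, and some of their markers differed between the same arrays. Of 9 measured plasma cell and B lineage markers, 5 were below the filter. In GN+Captopril minus Saline+Captopril, 3 of the 9 were 1.5-fold or more higher and 0 lower. In GN+Water minus Saline+Water, 7 were higher and 0 lower. Between the captopril groups, Irf4 differed by 0.04, Tnfrsf17 by −0.25 and Prdm1 by −0.23. Over background were 9 of the 9 on GN+Captopril, 9 on the array labelled GN+Water, 8 on Saline+Captopril and 5 on Saline+Water. The background limit was set for each array, at 4.36 on GN+Captopril and 4.81 on Saline+Water. On Saline+Water, Jchain, Irf4 and Prdm1 read 4.41, 4.67 and 4.77, between these limits, so the counts of the arrays are not on 1 scale. The mean level of the list was 6.91 on GN+Captopril, 8.01 on the array labelled GN+Water, 5.70 on Saline+Captopril and 5.43 on Saline+Water. Jchain, which joins antibody units, was at 10.45 on GN+Captopril, 12.46 on the array labelled GN+Water, 6.02 on Saline+Captopril and 4.41, near background, on Saline+Water. In GN+Captopril minus GN+Water, Xbp1 differed by 0.15 and Jchain by −2.01. Markers of pancreas, a secretory neighbour of the kidney, had a mean over 6 genes of 6.84 on GN+Captopril, 6.86 on the array labelled GN+Water, 6.97 on Saline+Captopril and 7.12 on Saline+Water. Of these 6, 4 had both GN arrays below both saline arrays, where 14.7% of all genes past the filter did. Cela2a and Cpa1, among those 4, were below the filter, at 4.24 to 5.04 and 4.96 to 5.60. Cela1, the only one of the 6 with both GN arrays above both saline arrays, read 12.07, 12.05, 11.93 and 11.50 in the same order of arrays. The others of the 6 read 7.29 or less, so Cela1 raises the mean, and a drop of pancreas RNA cannot be read from these levels. The part of either cell source in the Xbp1 level was not tested.

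Atf4 encodes the factor whose translation PERK favours, so its mRNA need not follow its activity. It read 9.99 on GN+Captopril, 10.20 on the array labelled GN+Water, 10.11 on Saline+Captopril and 10.29 on Saline+Water. The groups overlapped, and the 4 arrays spanned 0.30. The other, dimmer probe sets went opposite ways on Saline+Water: 1 read 6.40, 6.30, 6.45 and 7.90, the other 6.52, 6.64, 6.77 and 5.47. GN+Water minus Saline+Water was accordingly −0.09, −1.60 and 1.18 by the 3 probe sets, and GN+Captopril minus Saline+Captopril was −0.12, −0.05 and −0.25.

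Ddit3 encodes CHOP, which promotes cell death when stress does not resolve. Its single probe set read 7.59 on GN+Captopril, 7.78 on the array labelled GN+Water, 7.61 on Saline+Captopril and 7.90 on Saline+Water. Both water arrays were above both captopril arrays, by 0.16 at the closest, and the GN and saline arrays overlapped. GN+Captopril minus Saline+Captopril was −0.03, or 1.02-fold lower.

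**Figure D3:**
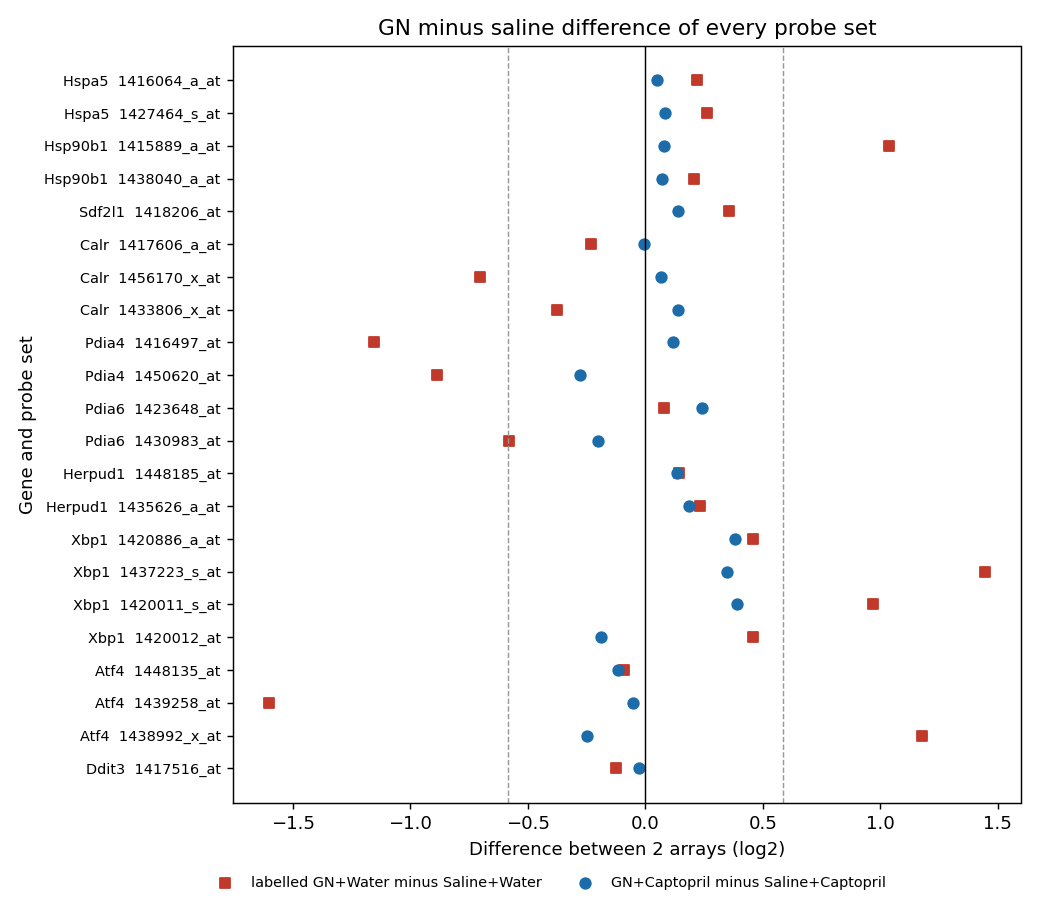
GN minus saline difference (log2, x axis) of each of the 22 probe sets, grouped by gene, for GN+Captopril minus Saline+Captopril (circles) and the array labelled GN+Water minus Saline+Water (squares), with dashed lines at 1.5-fold. No circle passes a dashed line, while 4 squares lie beyond each of them and those of Atf4 lie on opposite sides.

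Across the set, 3 of 10 genes (Hsp90b1, Xbp1 and Pdia6) had both GN arrays above both saline arrays and 0 had both below, where 16.1% and 14.7% of all genes did. The count of 3 became 2 under quantile normalisation and 4 under cyclic loess. The GN arrays differ in captopril and the saline arrays do too, so this is a count and not a test. Leaving out Saline+Water, the range over the other 3 arrays was under 1.5-fold for 9 of 10 genes, and for 88.6% of all genes. The median range was 0.23 for the 10 genes and 0.20 for all genes. With Saline+Water it was 0.46 and 0.51. Probe sets showed the same dependence: of the 6 genes with several probe sets past the filter, 3 (Atf4, Hsp90b1 and Xbp1) disagreed by over 1.5-fold in GN+Water minus Saline+Water and 0 in GN+Captopril minus Saline+Captopril, against 56.2% and 1.05% of all such genes.

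The captopril comparisons did not move the 10 genes in a single direction. In each of them, 4 differences were above 0 and 6 below it. Both water arrays were above both captopril arrays for Calr, Pdia4, Sdf2l1, Atf4 and Ddit3, and below them for Hspa5 and Herpud1. The share of all genes that separate this way was not computed, so these are values and not a result about the set. Saline+Water was the highest array for 4 of the 10 genes and the lowest for 4. Between GN+Captopril and the array labelled GN+Water, 0 of the 10 genes were 1.5-fold apart, where 3.7% of all genes were higher and 4.52% lower. The differences ran from −0.54 for Sdf2l1 to 0.48 for Herpud1, with a median of −0.10. Between Saline+Captopril and Saline+Water, Hsp90b1 was 1.81-fold higher and Pdia4 2.71-fold lower, and the other 8 genes were under 1.5-fold. All genes had 15.6% higher and 10.2% lower in that comparison, and the median over the 10 was −0.16.

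The profile of a gene over the 4 arrays, centred on its own mean, was set against that of Hspa5 and of Xbp1 by Euclidean distance on the log2 scale, over 8197 genes outside the set. The closest to Hspa5 were Ppp3ca, Inafm2, Isca1, Mynn and Psmb4, at distances of 0.014 to 0.024. The nearest of the other 9 genes was Pdia6 at 0.28, which ranked 2195 among them. For Xbp1 the closest were Vrk2, Zbtb22, Vamp5, Cbfb and Leng1 at 0.061 to 0.12, and Hspa5 came nearest among the set, at 0.29. Over 4 arrays, a flat profile has many near neighbours.

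Other genes of the pathway were taken from 5 lists of 109 genes in all, of which 100 had a probe set and 6 of those were below the filter. In GN+Captopril minus Saline+Captopril, 2 of the 100 passed 1.5-fold upwards and 0 downwards. In GN+Water minus Saline+Water, 16 were higher and 10 lower, and in Saline+Captopril minus Saline+Water 12 were higher and 12 lower. In GN+Captopril minus GN+Water, 0 were higher and 2 lower. Over the 100 genes these counts are near or under the shares of all genes given above, which are of genes past the filter.

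**Figure D4:**
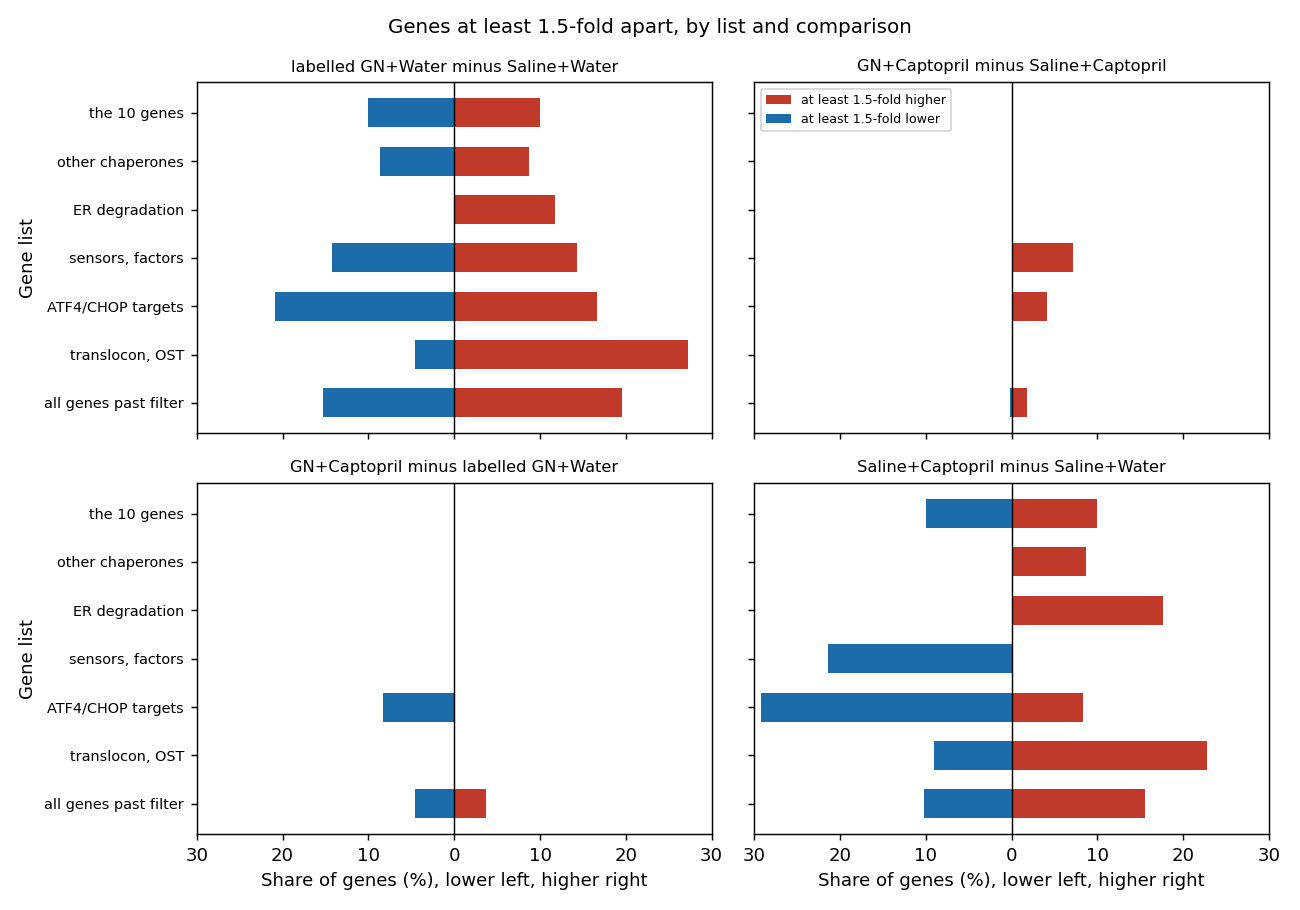
Share of genes (percent, x axis) at least 1.5-fold higher (right of 0) and lower (left of 0) in each of the 4 comparisons, for the 10 genes, 5 further lists and all 8207 genes past the filter. Bars are long in both panels that use Saline+Water and short or missing in the others.

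Other ER chaperones and folding enzymes numbered 23, of which 0 were 1.5-fold apart between the captopril groups, and their median was 0.04. Dnajb9, a BiP co-chaperone and XBP1 target, read 10.22 on GN+Captopril, 10.24 on the array labelled GN+Water, 10.21 on Saline+Captopril and 8.83 on Saline+Water. It was thus alike on 3 arrays and 2.66-fold higher in GN+Water minus Saline+Water, where 2 genes of the list were higher and 2 lower. Dnajc3, which inhibits PERK and also assists BiP, read 9.96, 10.08, 9.97 and 9.17 by its brightest probe set. Its probe sets disagreed on Saline+Water, which was highest of the arrays by 2 of the 5 and lowest by 3, with differences of −0.25 to 0.91 in GN+Water minus Saline+Water. Creld2 and Tor1a had the largest differences between the captopril groups, 0.28 and 0.31. Of the 20 genes of this list with a promoter window, 4 (Canx, Creld2, Dnajc3 and Ero1b) held an ERSE.

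Of 17 genes of ER-associated degradation, 0 were 1.5-fold apart between the captopril groups, and 2 higher and 0 lower in GN+Water minus Saline+Water. Edem1, a mannosidase-like protein that marks glycoproteins for disposal, read 10.19 on GN+Captopril, 9.80 on the array labelled GN+Water, 9.80 on Saline+Captopril and 9.66 on Saline+Water. GN+Captopril was highest, by 0.39 over Saline+Captopril, and by 0.20 with the second probe set. Derl3 and Syvn1 were the 2 genes with an ERSE among 16 with a window.

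Among 14 sensors, their processing proteases and related factors, 1 was at least 1.5-fold higher between the captopril groups. This was Bcl2l11, which encodes BIM, a death-promoting BCL2 relative induced by CHOP and by other signals. It read 8.14 on GN+Captopril, 8.01 on the array labelled GN+Water, 7.49 on Saline+Captopril and 6.91 on Saline+Water, so that the groups did not overlap, with differences of 0.66 on captopril and 1.10 on water. Its other 4 probe sets gave 0.27 to 0.51 on captopril, and −0.06 to 0.34 on water. Atf6b, a relative of the sensor ATF6, was 1.96-fold lower in GN+Water minus Saline+Water, but read 7.26, 7.20, 7.09 and 8.17, with Saline+Water the array that stood away.

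Of 24 targets of ATF4 and CHOP and genes of the amino acid response, 1 was at least 1.5-fold higher between the captopril groups, with a list median of 0.01. This was Nupr1, a stress-induced nuclear protein, at 7.90 on GN+Captopril, 8.92 on the array labelled GN+Water, 7.28 on Saline+Captopril and 7.81 on Saline+Water. GN exceeded saline by 0.62 on captopril and by 1.11 on water, although GN+Captopril was only 0.08 above Saline+Water. Its second probe set gave 0.91 and 1.69. Captopril was lower than water in GN by 1.02, or 2.03-fold. Macrophage markers were highest on the same array: the mean of 10 was 8.99 on GN+Captopril, 9.79 on the array labelled GN+Water, 7.74 on Saline+Captopril and 7.70 on Saline+Water, and their part in the Nupr1 level was not tested.

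Asns, which makes asparagine and is a direct ATF4 target, read 7.01 on GN+Captopril, 7.73 on the array labelled GN+Water, 7.16 on Saline+Captopril and 7.02 on Saline+Water. It was high on 1 array only, the one whose sex-linked genes go against its label. Asns and Nupr1 were the 2 genes of this list lower by 1.5-fold or more in GN+Captopril minus GN+Water. The C/EBP-ATF element was present in 7 of 23 windows of this list, against 0.895% of all windows. These were Aars, Atf3, Chac1, Fgf21, Nupr1, Slc7a11 and Vldlr. The list was chosen as targets of ATF4 and CHOP and genes of the amino acid response, so this count is no test.

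Of 22 translocon, signal peptidase and oligosaccharyl transferase genes, 0 were 1.5-fold apart between the captopril groups. In GN+Water minus Saline+Water 6 were higher and 1 lower, where 19.6% of all genes were higher and 15.3% lower. In Saline+Captopril minus Saline+Water 5 were higher and 2 lower, where 15.6% of all genes were higher and 10.2% lower. The share higher was above that of all genes in both comparisons, but among 22 genes by few genes only. Both use Saline+Water and so are not separate observations. Spcs2, among the genes higher, was 1.18 in GN+Water minus Saline+Water by its brighter probe set and 0.17 by the other. Sec11c, a catalytic subunit of signal peptidase, read 8.92 on GN+Captopril, 9.42 on the array labelled GN+Water, 8.86 on Saline+Captopril and 7.53 on Saline+Water. Its 3.72-fold difference on water stands beside 1.04-fold on captopril. None of the 19 windows of this list held an ERSE, which is near the 0.119% of all windows.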

How the data were processed

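Biotinylated cRNA from 6 µg of total RNA was, per the labels' protocols, hybridised to Affymetrix arrays. The deposited file holds log2 values of 22690 probe sets, judged from their range. GCOS and RMA are named by the submitters' processing notes, while for the normalisation step and genome build the entry is: not given in the sources used here. Values were used as deposited, with no detection calls.

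Of the probe sets, 20393 had 1 symbol in the platform annotation, 691 several and 1606 none. Of those with 1 symbol, 20364 took it from the GRCm38.p6 gene table through the Entrez ID, whether or not it changed. A gene was its probe set with the highest mean, and 8207 of 12394 genes passed a filter at the 40th percentile, 6.27. Each comparison subtracts 1 array from another, and counts are of genes apart by 1.5-fold or more. Near background means at or under the 90th percentile of 27 bacterial control probe sets, 4.36 to 4.81. All probe sets of the 10 genes were described. From each further list, genes 1.5-fold apart the same way in both GN comparisons and the 2 largest differences of each comparison could be named, and likeness was by the 5 nearest profiles. The 10 genes and the lists were chosen with earlier results of these data known. Software was Python 3.11.15, pandas 2.3.3 and limma 3.58.1.

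Alternatives were cyclic loess, quantile normalisation and median centring, averaging a gene's probe sets, leaving out probe sets of shared kinds (suffixes for several transcripts or genes), a 2-fold threshold, a 60th percentile filter or none, and using the captopril array for GN+Water or for Saline+Water. Only the step from probe sets to genes and the 1.5-fold call were tested on simulated data, with noise far smaller than the disagreement of probe sets here. The promoter search, the likeness and the alternatives were not tested in this way.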

Additional observations from a re-analysis of the deposited data

How the results depend on the processing

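Under median centring, quantile normalisation and cyclic loess, the counts and medians of the 10 genes kept to within 1.5 times and 0.2 (log2) of the values given. In GN+Water minus Saline+Water, the count at least 1.5-fold higher was 2 with the mean of all probe sets, 0 without probe sets of shared kinds and 3 with GN+Captopril in place of GN+Water, against 1 as reported. With Saline+Captopril standing in for Saline+Water the count lower was 0, and Pdia4 was 0.28, against −1.15 as reported. The median of 0.11 was −0.04 with GN+Captopril in place of GN+Water. In Saline+Captopril minus Saline+Water, the count higher was 0 without probe sets of shared kinds and 0 at a 2-fold threshold. The count with both GN arrays higher was 1 without probe sets of shared kinds, which leaves no probe set for Hspa5, Hsp90b1 or Calr and for Xbp1 the one at −0.19 in GN+Captopril minus Saline+Captopril, against 0.38 as reported. The count with both lower was 1 with the mean of all probe sets. For GN+Captopril minus Saline+Captopril and GN+Captopril minus GN+Water, no count or median over the 10 genes moved this far under the alternatives run. Of 208 differences of single genes under the alternatives, 185 stayed within 0.2 of the value given, 23 moved further and 15 changed sign. With Saline+Captopril standing in for Saline+Water, Herpud1 was −0.35 and Calr 0.08, against 0.14 and −0.23 as reported. Apart from settings that drop genes or change the threshold, the cause was not tested. No paired analysis was possible because each group has 1 array. With 1 array per group, differences between animals were not measured.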

Other observations

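Some genes of the secretory pathway, picked after their values were seen, were highest on the array labelled GN+Water. Txndc5, a disulfide isomerase abundant in plasma cells, read 9.58 on GN+Captopril, 10.08 on the array labelled GN+Water, 9.38 on Saline+Captopril and 9.95 on Saline+Water. Its second probe set read 9.37, 10.22, 9.35 and 9.56 in that order. Derl3, an export factor of ER-associated degradation whose promoter window held an ERSE, read 8.10 on GN+Captopril and 8.56 on the array labelled GN+Water, with 8.19 on Saline+Water. Sdf2l1 and Sec11c, given above, also had their highest value there. Other genes of the same lists went the other way. Derl2, Sil1 and Sec11a were lowest there by their brightest probe sets, at 9.70, 8.90 and 11.01. How many genes were highest or lowest on that array was not counted, in these lists or over all genes. That array carried the highest mean of the plasma cell markers, 8.01, and the sex-linked levels that go against its label, and the part of either in these values was not tested.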
